A study of Mus musculus with 20 samples.

Results

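Interferon response genes are the transcripts that cells raise when an interferon binds its receptor. Here 34 of them were listed by name, 22 that mark a type I response and 12 that mark a response to interferon gamma, and 32 could be measured, 20 and 12. Each gene was represented by the probe set, a group of short oligonucleotides on the array, with the highest mean over the 20 arrays among those annotated to that gene alone, out of 18193 genes with such a probe set. Isg15 shared its only probe set with another gene and Ifi44 matched none, so both were not used here.

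Type I interferons signal through the receptor subunits Ifnar1 and Ifnar2 and the kinases Jak1 and Tyk2 to a complex that includes Stat2 and Irf9 and binds a DNA element called the interferon-stimulated response element (ISRE). Interferon gamma signals through Ifngr1 and Ifngr2 to a DNA element called the gamma-activated site (GAS), and induces Irf1, a factor that also binds ISRE-like elements. The programmes overlap, so the 2 classes name typical inducers and not exclusive ones. In liver, hepatocytes, resident macrophages (Kupffer cells) and endothelial cells can all respond.

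Livers came from 20 male C57BL/6J mice, an inbred strain, bought at 3 weeks of age and labelled as 8 weeks old, with 1 array per mouse. All acclimated for a week on a low-fat diet with 10 kcal% fat. Then 10 mice ate a high-fat diet with 45 kcal% fat (HFD) for 4 weeks, and 10 ate that diet with 0.05% of the maple syrup extract MSXH, so every mouse compared was fed the high-fat diet. The mice fasted for 16 h and were killed on day 30, and the labels number biological replicates 1 to 10 in each diet. No agent that induces interferon and no infection is named in the labels. A low-fat group and a 0.02% extract group that the protocol names were not analysed here.

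The deposited log2 values hardly differed between arrays. The SD of the median probe set over the 20 arrays was 9.34e-06, and 49 of 45101 probe sets spanned more than 0.1. How they were normalized is not given in the sources used here, so a difference cannot be read as a fold change. Deviations are therefore given in thousandths of a deposited log2 unit, and diet differences as Hedges' g, the difference of means (MSXH minus HFD) in units of the pooled SD, corrected for small samples. The hepatocyte markers, led by albumin (Alb, 14.74), lay between 11.42 and 14.74, as the tissue label says.

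Promoters of the members with the ISRE core and the largest spread between mice are shown first, since the 2 classes turned out to vary together and these genes come from both. The ISRE core was searched as GAAA, any 2 bases and GAAA, and the GAS core as TTC, any 3 bases and GAA, on both strands, from 250 bases before to 50 bases after each gene start (RefSeq, GRCm38.p6). The sequences run 5′ to 3′ along the gene, and the capitals mark the ISRE core, which reads TTTC, any 2 bases and TTTC where it lies on the opposite strand. The core of Gbp2 (chr3:142620413-142620712, plus strand) began 59 bases before the start. That of Igtp (chr11:58199306-58199605, plus strand) began 34 bases before it, close to a GAS core. That of Rsad2 (chr12:26456403-26456702, minus strand) began 120 bases before the start. Gbp3 (chr3:142559794-142560093, plus strand) held 2 overlapping cores, of which the first began 45 bases before the start.

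Gbp2: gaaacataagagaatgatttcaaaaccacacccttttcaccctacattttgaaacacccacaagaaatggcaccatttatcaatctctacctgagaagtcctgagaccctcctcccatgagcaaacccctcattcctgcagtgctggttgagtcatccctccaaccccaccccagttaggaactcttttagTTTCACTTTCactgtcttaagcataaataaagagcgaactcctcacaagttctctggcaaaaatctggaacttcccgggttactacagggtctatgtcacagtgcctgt
Igtp: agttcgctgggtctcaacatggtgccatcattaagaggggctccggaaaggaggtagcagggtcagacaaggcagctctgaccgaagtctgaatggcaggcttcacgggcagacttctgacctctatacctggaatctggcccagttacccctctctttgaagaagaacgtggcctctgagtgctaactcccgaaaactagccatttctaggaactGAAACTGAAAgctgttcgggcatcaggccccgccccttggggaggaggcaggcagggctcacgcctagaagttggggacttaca
Rsad2: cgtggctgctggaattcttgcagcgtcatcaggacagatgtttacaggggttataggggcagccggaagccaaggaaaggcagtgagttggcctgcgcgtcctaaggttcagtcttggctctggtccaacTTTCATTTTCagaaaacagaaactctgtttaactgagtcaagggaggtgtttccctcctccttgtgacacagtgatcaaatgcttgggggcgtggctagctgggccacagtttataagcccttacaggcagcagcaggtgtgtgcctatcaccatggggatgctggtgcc
Gbp3: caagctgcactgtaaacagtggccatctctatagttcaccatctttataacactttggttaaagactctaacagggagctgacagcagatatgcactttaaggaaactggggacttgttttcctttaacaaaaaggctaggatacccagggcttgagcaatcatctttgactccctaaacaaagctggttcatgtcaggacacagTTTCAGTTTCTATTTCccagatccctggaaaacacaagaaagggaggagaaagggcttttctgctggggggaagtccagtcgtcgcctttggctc

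Of the 34 listed genes, 28 had a promoter in the table, and 15 of them held an ISRE core (53.6%), against 3.99% of the 27025 genes in the table. The classes did not separate by this element. It was found in 9 of 17 type I promoters, among them Ifit1, Ifit3, Oas1a, Bst2, Stat2, Ddx58 and Ifih1, and in 6 of 11 gamma promoters, namely Gbp2, Gbp3, Igtp, Irgm1, Cxcl10 and B2m. The GAS core was found in 7 of 28 (25%, against 9.55% of the table), and the cores occurred together in 3, Oas1a, Bst2 and Igtp. The median r between members, described further on, was 0.574 among the 14 measured members with the ISRE core and 0.434 among the 12 without it. A match is a description of these letters and not a measured binding site.

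On the deposited scale, most members had a larger SD between mice than most genes did. Their median SD was 0.131 thousandths, against 0.0148 for all 11728 genes tested, and 18 of 32 lay above the 90th percentile of the 18193 genes with a probe set, 9 in each class. The gamma class had a median SD of 0.307 and the type I class of 0.0714. How the normalization set the spread of each gene is not known, so these SDs describe the deposited values only. Levels of different probe sets cannot be set against each other, so each level below stands for its own gene, and 3 members, Ifit2 (6.24), Oasl2 (6.26) and Mx1 (6.03), lay under the filter at the median of all probe sets (6.51).

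**Figure D1:**
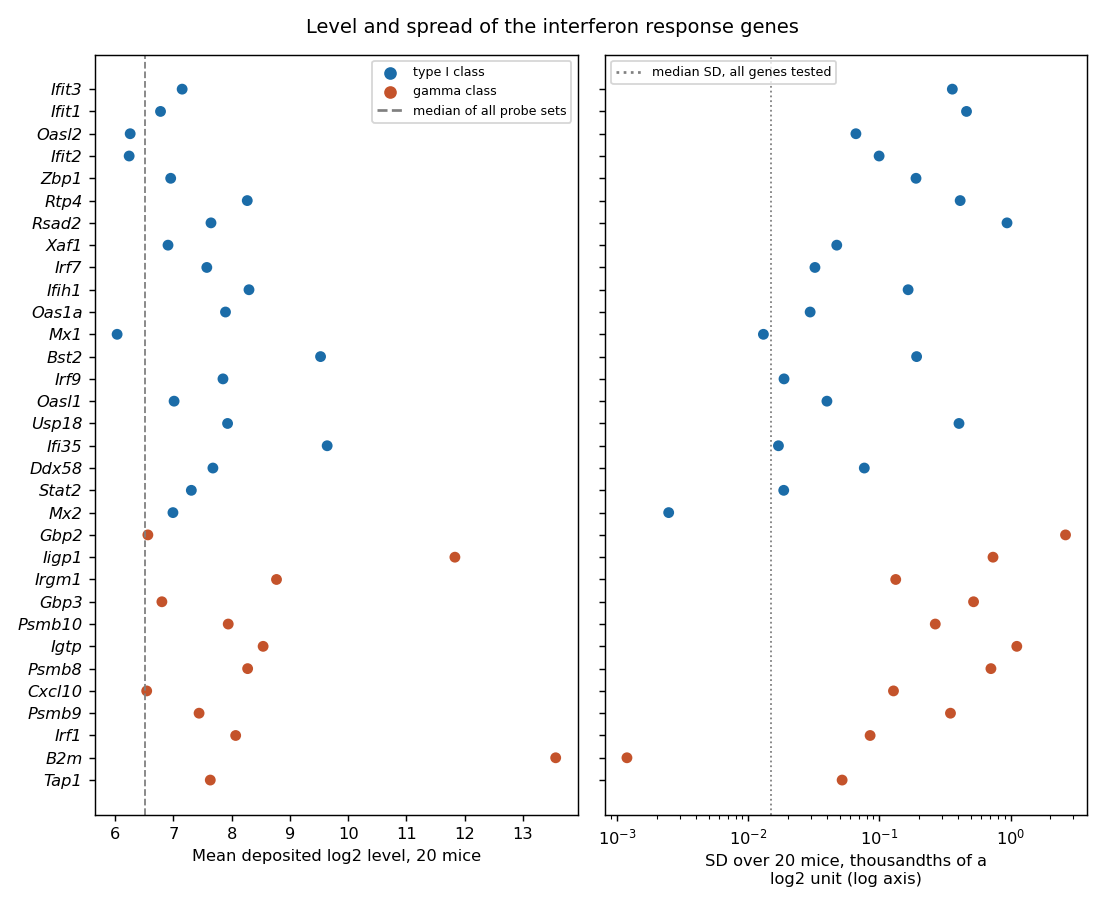
Mean deposited log2 level over 20 mice (left, linear axis) and SD over the same mice in thousandths of a log2 unit (right, log axis) for the 32 genes, with the type I class above the gamma class and each class ordered by its median correlation within the class. The dashed line is the filter at 6.51 and the dotted line the median SD of the genes tested, 0.0148, and most points lie to the right of it, with Gbp2 at 2.62 and B2m at 0.00119.

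Among the antiviral effectors of the type I class, Rsad2, which encodes viperin, an enzyme that makes a chain-terminating nucleotide, had the largest spread, at a mean level of 7.65. Its deviations ran from -1.28 thousandths through a median of 0.0653 to 1.65 in HFD mice and from -1.76 through 0.0356 to 0.966 in MSXH mice. The diets overlapped throughout, and replicate 9 was lowest and replicate 5 highest in HFD. All 3 Rsad2 probe sets followed the same mice, with r = 0.924 and 0.969 against the chosen set.

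Ifit1 (level 6.78), whose protein binds foreign RNA ends, ran from -0.634 through 0.0576 to 0.825 thousandths in HFD and from -1.01 through -0.0383 to 0.585 in MSXH. Its relative Ifit3 (7.15) ran from -0.487 through -0.0544 to 0.691 and from -0.578 through -0.0547 to 0.490. For both genes the lowest and highest mice were the same, HFD replicates 9 and 5 and MSXH replicates 6 and 8. Zbp1 (6.95), a sensor of Z-form nucleic acid, had an SD of 0.190, and Bst2 (9.53), or tetherin, which holds budding virus at the membrane, of 0.192.

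The oligoadenylate synthetase genes Oas1a (7.89), Oasl1 (7.01) and Oasl2 had SDs of 0.0296, 0.0398 and 0.0662, and Ifit2 of 0.0994. The dynamin-like GTPase Mx2 (6.99) was nearly flat, with an SD of 0.00247, and Mx1 had one of 0.0130. Laboratory strains such as C57BL/6 are known to carry a defective Mx1 gene.

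The sensors of viral RNA, Ifih1 (MDA5, 8.30) and Ddx58 (RIG-I, 7.68), had SDs of 0.165 and 0.0767. Among the factors that carry the signal, Irf1 (8.07) had an SD of 0.0849, Irf7 (7.57) of 0.0322, Irf9 (7.85) of 0.0187 and Stat2 (7.31) of 0.0186. Among the other members, Gbp2, Igtp and Rsad2 had larger SDs than these factors on the deposited scale, and B2m, Mx2, Mx1 and Ifi35 smaller ones. Usp18 (7.93), which removes Isg15 from proteins and damps receptor signalling, had an SD of 0.404 and was highest in HFD replicate 2, at 1.04 thousandths. Rtp4 (8.27), a chaperone of receptors, had an SD of 0.413, Xaf1 (6.91), a partner of the apoptosis inhibitor Xiap, of 0.0473, and Ifi35 (9.64) of 0.0170.

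In the gamma class, the largest SDs were those of Gbp2, Igtp and Iigp1, GTPases that act in the defence against intracellular pathogens. Gbp2 (6.56) ran from -3.71 thousandths through -1.04 to 5.49 in HFD and from -2.98 through 0.0187 to 5.84 in MSXH. HFD replicate 5 and MSXH replicate 3 stood highest, and the rest of both diets overlapped below 3. The chosen Gbp2 probe set is of a type that can match related transcripts, and the other set followed it with r = 0.979. Igtp (8.54), also called Irgm3, ran from -1.05 through -0.0516 to 1.75 in HFD and from -1.28 through -0.0883 to 2.96 in MSXH, again with MSXH replicate 3 highest. Iigp1 (11.83) had an SD of 0.735 with r = 0.979 between its probe sets, Gbp3 (6.80) of 0.522 and Irgm1 (8.77) of 0.133.

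The inducible proteasome subunits, which alter the peptides shown on class I molecules, were Psmb8 (8.27, SD 0.708), Psmb9 (7.44, 0.348) and Psmb10 (7.94, 0.267). Tap1 (7.63), the transporter that carries such peptides into the endoplasmic reticulum, had an SD of 0.0519, and its 3 other probe sets did not follow it (r between -0.214 and -0.0990). B2m (13.56), the light chain of class I molecules, had an SD of 0.00119, at percentile 0.907 of the 18193 genes with a probe set. Cxcl10 (6.54), a chemokine that draws T cells, had an SD of 0.128.

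**Figure D2:**
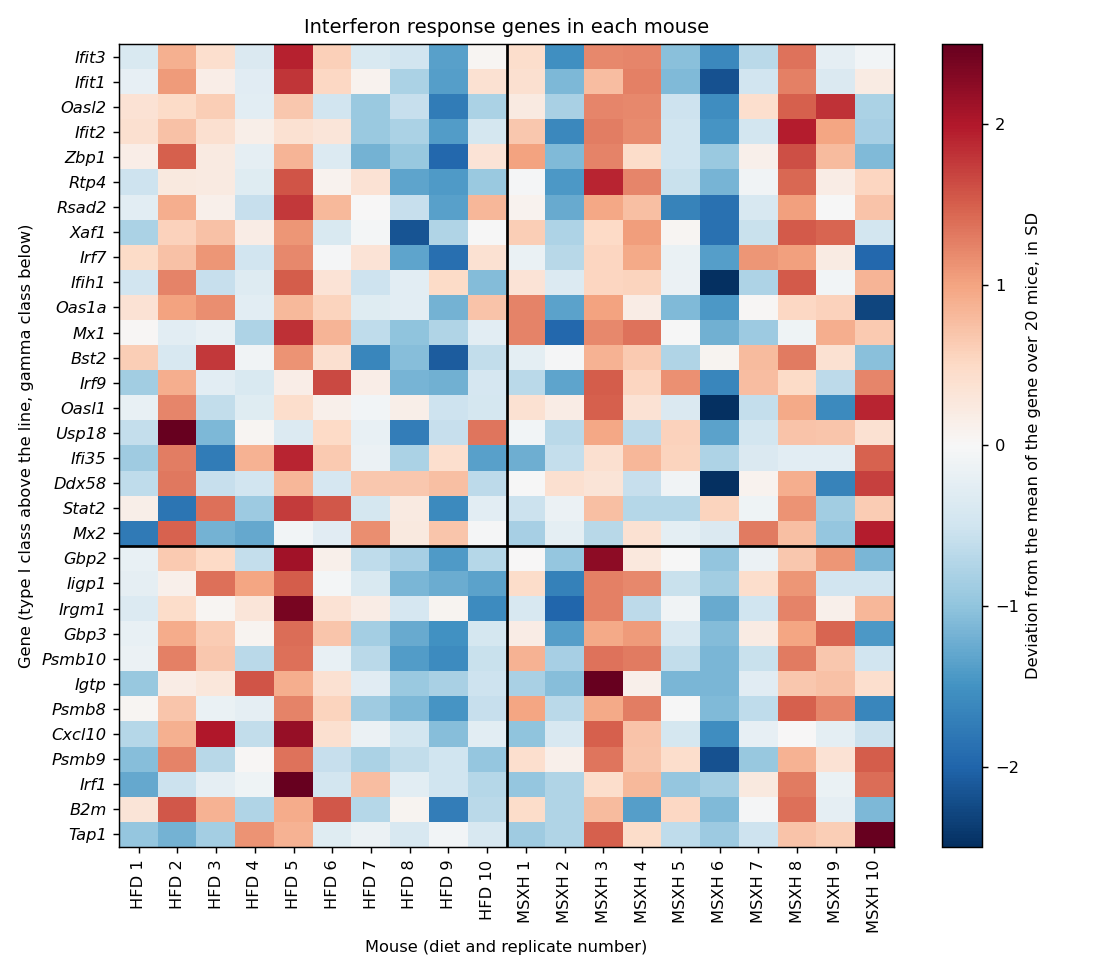
Deviation of each of the 32 genes from its mean over the 20 mice, in units of its SD, with genes in rows (type I class above the line) and mice in columns (HFD left of the line, MSXH right). Deviations past the ends of the colour scale take its end colours. HFD replicate 5 and MSXH replicates 3 and 8 are red in at least 30 of 32 rows, and MSXH replicates 6 and 2 are blue in at least 29.

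The same mice were high or low across the members. MSXH replicate 3 lay above the gene's own mean for 31 of 32 members, HFD replicate 5 and MSXH replicate 8 for 30 each, and HFD replicate 2 and MSXH replicate 4 for 27 each. At the other end, MSXH replicate 6 lay above it for 2, MSXH replicate 2 for 3, HFD replicates 8 and 9 for 5 each and MSXH replicate 5 for 6. High and low mice occurred in both diets.

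Pairs of members were compared by Pearson r over the 20 mice after removing each diet's mean, as a description. The points share their arrays and the authors' normalization. Within the type I class the median r over 190 pairs was 0.463 (jackknife SE over mice 0.0769), and 46.8% of pairs exceeded 0.5. Within the gamma class it was 0.580 (SE 0.0972) over 66 pairs, with 68.2% above 0.5. Over all pairs of the 11728 genes tested the median was 0.0126 and 5.57% exceeded 0.5. Among the 1173 genes with an SD above the 90th percentile, a range in which many members lie, the median was 0.0276 and 14.8% exceeded 0.5.

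The median r across the classes lay between that within type I and that within gamma. The 240 pairs across the classes had a median r of 0.519 (SE 0.101), and the mean of the within-class medians exceeded it by 0.00197 (SE 0.0419). That mean offsets a lower type I median with a higher gamma median. No SE was computed for the difference of each class alone. Of the 20 type I members, 11 had a higher median r with the gamma class than with their own, and 4 of the 12 gamma members had a higher one with the type I class. The mean standardised levels of the classes followed each other with r = 0.931 and rho = 0.923 (n = 20, 0.910 in HFD and 0.953 in MSXH), and with r = 0.913 or 0.923 after leaving out the 2 mice farthest from the median of the type I or the gamma mean.

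**Figure D3:**
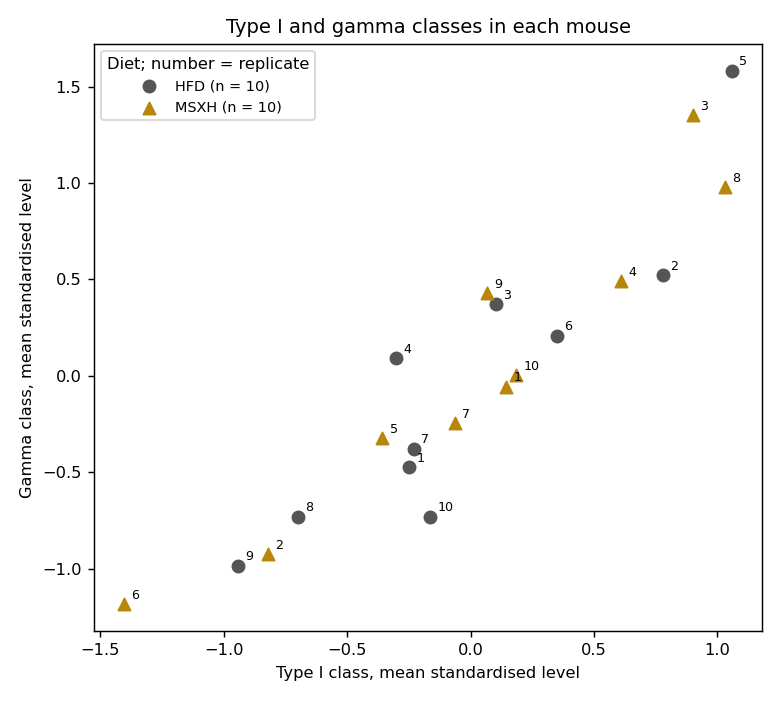
Mean standardised level of the 12 gamma genes (vertical axis) against that of the 20 type I genes (horizontal axis), 1 point per mouse, numbered by replicate, for 10 HFD (circles) and 10 MSXH (triangles) mice. The points lie along a rising line from MSXH replicate 6 (-1.40, -1.18) to HFD replicate 5 (1.06, 1.58), with both diets along its length.

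The closest pairs were antiviral effectors. Ifit1 and Ifit3 had r = 0.964, Ifit1 and Rsad2 0.954, and Ifit3 and Rsad2 0.929. They were followed by pairs of every kind. In the gamma class Gbp3 and Psmb8 had r = 0.922, across the classes Ifit3 and Psmb10 0.916, and in the type I class Ifit2 and Oasl2 as well as Ifit3 and Rtp4 0.908. Psmb10 had r above 0.8 with 12 of the 31 other members and Gbp3 with 9.

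A smaller set shared another pattern. The RNA sensors Ifih1 and Ddx58 had r = 0.734, and Oasl1, which binds and restrains translation of Irf7 mRNA, had 0.783 with Ifih1 and 0.849 with Ddx58. The proteasome subunit Psmb9 joined them, with 0.904 to Ifih1 and 0.799 to Oasl1. These 4 genes were chosen after their values were seen, so no test was made. Ddx58 had a median r of 0.276 with the type I class and 0.166 with the gamma class.

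Some members stood outside the common pattern. Mx2 had the lowest r of any pair, -0.447 with Bst2, while its highest was 0.668 with Ddx58. Its median r was 0.056 with the type I class and -0.103 with the gamma class. Stat2 reached 0.172 and 0.310 and Usp18 0.361 and 0.376. Tap1 had 0.323 and 0.240, with 0.703 to Igtp and 0.697 to Irf1 but 0.016 to Psmb8. The probe sets of a gene did not always agree here: Stat2's other set had r = 0.577 with the chosen one, Xaf1's -0.135 and Psmb8's 0.420.

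**Figure D4:**
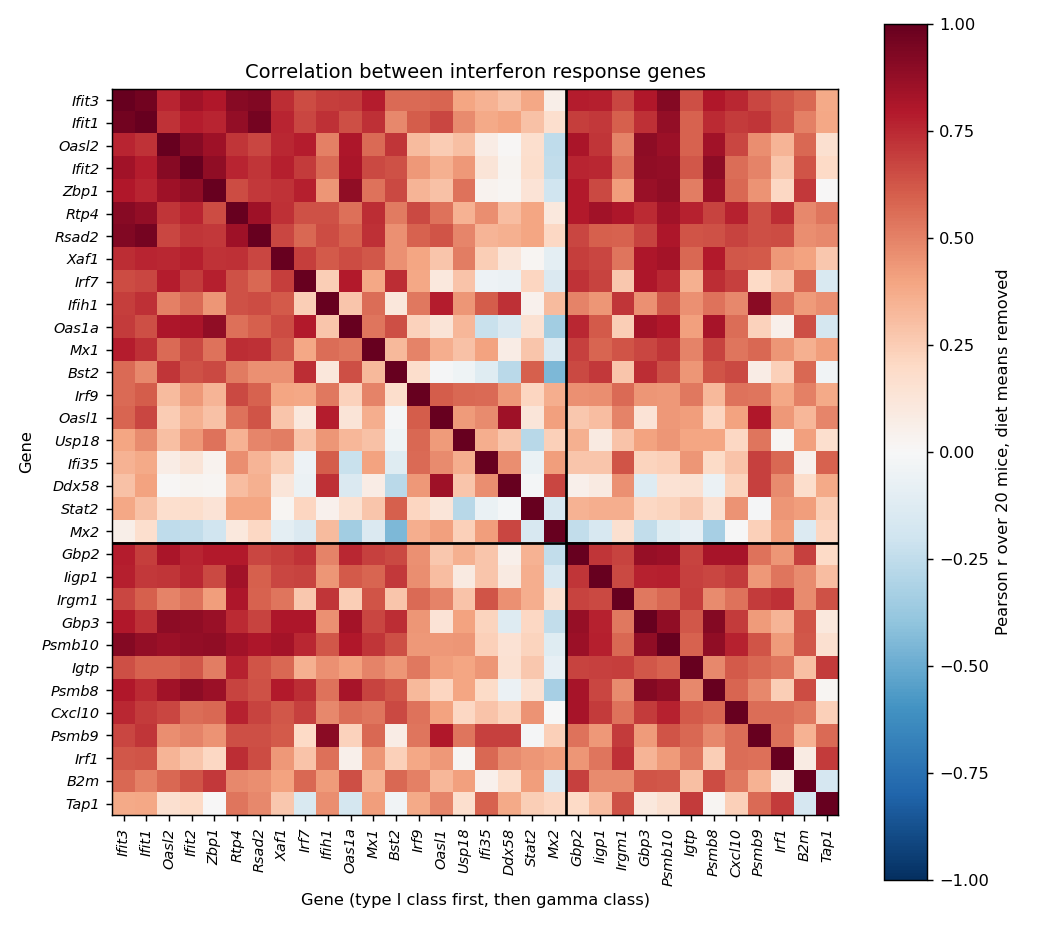
Pearson r over 20 mice, with diet means removed, for each pair of the 32 genes, with the type I class first and each class ordered by its median r within the class. The block between the classes (upper right and lower left) is as red as the blocks within them (median r 0.519 against 0.463 and 0.580). The row of Mx2 is mostly pale or blue, but red at Ddx58 (r = 0.668).

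For 10 chosen pairs over the 20 mice (diet means kept), Pearson r was tested by two-sided permutation with 100000 resamples. The p-values were adjusted over the 10 pairs, and 8 passed. The pairs were chosen with earlier results of these data known, so these p-values are not independent evidence of co-variation. Ifit1 and Ifit3 had r = 0.963 (rho 0.976, permutation p = 1e-05, the smallest that these resamples can give, adjusted p = 0.0001), with 0.962 within HFD and 0.965 within MSXH. Rtp4 and Xaf1 had r = 0.740 (rho 0.714, permutation p = 0.00019, adjusted p = 0.00095), with 0.784 and 0.695 within the diets. Igtp and Irgm1, both immunity-related GTPases, had 0.680 (rho 0.773, permutation p = 0.00113, adjusted p = 0.00312), with 0.581 and 0.772.

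Gbp2 and Igtp had r = 0.675 (rho 0.597, permutation p = 0.00125, adjusted p = 0.00312), with 0.516 in HFD and 0.798 in MSXH. Without the 2 mice farthest from the Gbp2 median r was 0.440 and the permutation p adjusted over the pairs 0.0858, so the call was lost. It was also lost for Tap1 and Psmb9 (r = 0.597, rho 0.526, permutation p = 0.00485, adjusted p = 0.0097, 0.301 in HFD and 0.708 in MSXH), where r was then 0.413 (adjusted p = 0.0972). For Rsad2 and Oasl2 (r = 0.586, rho 0.600, permutation p = 0.00676, adjusted p = 0.00987, 0.585 and 0.718) the adjusted p then lay just past the threshold (r = 0.498, adjusted p = 0.0523).

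Across the classes, Ifit1 and Igtp had r = 0.583 (rho 0.627, permutation p = 0.00691, adjusted p = 0.00987, 0.510 in HFD and 0.637 in MSXH), and 0.510 without the 2 farthest mice (adjusted p = 0.0491). Psmb8 and Psmb9 had 0.509 (rho 0.451, permutation p = 0.0229, adjusted p = 0.0286, 0.662 and 0.377), and 0.734 without them. Their rho missed the threshold (adjusted p = 0.0594). The partners Stat2 and Irf9, which sit in the same complex, had r = 0.213 (rho 0.206, permutation p = 0.364, adjusted p = 0.364, 0.260 and 0.190). Irf7 and Irf1, which are induced in the type I and the gamma response, had 0.279 (rho 0.362, permutation p = 0.236, adjusted p = 0.262, 0.342 and 0.217). Without the 2 farthest mice Irf7 and Irf1 had 0.540 (adjusted p = 0.0396). Within HFD alone 2 of the 10 pairs passed and within MSXH alone 6, with 10 mice each, and all 10 had r above 0 in both.

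The levels of correlation depended on the scaling between arrays. After quantile normalization, which gives every array the same set of values, the medians fell to 0.213 within type I, 0.147 within gamma and 0.199 between, against 0.128 over all gene pairs. The class means then had r = 0.780, and 1 of the 10 pairs passed, Ifit1 and Ifit3 (r = 0.797). After shifting arrays to one median, 10 of the 10 pairs passed, with r = 0.940 for Stat2 and Irf9 and 0.750 for Irf7 and Irf1. The median over all gene pairs was then itself 0.878, above the members' 0.679, 0.627 and 0.649. At that setting the members therefore did not stand above the other genes.

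Outside the list, the 6 genes closest to the type I mean were Shisa5 (r = 0.917), Gbp7 (0.905), Mgam (0.889), Aldh4a1 (0.886), Cnp (0.869) and Cenpx (0.868), over 20 mice. Those closest to the gamma mean were Ifi47 (0.932), Gbp6 (0.928), Gbp7 (0.894), Anxa4 (0.887), Shisa5 (0.884) and Mgam (0.852). Gbp6 and Gbp7 are guanylate-binding proteins like the members Gbp2 and Gbp3, and Ifi47 is an interferon-inducible GTPase. Gbp7, Shisa5 and Mgam were among the 6 closest for both classes.

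Markers of other cells and of RNA quality moved with the members to different degrees. The 8 Kupffer cell markers, all above the filter, had a mean standardised level between -0.810 and 1.62 in HFD and between -1.96 and 1.71 in MSXH, and r = 0.514 with the type I mean and 0.597 with the gamma mean. With that level removed, the medians of pairwise r were 0.463 within type I, 0.536 within gamma and 0.474 between. The Kupffer markers were tighter among themselves, with a median r of 0.845 over 28 pairs. The 3 B cell markers measured of 4, all under the filter, had r = 0.511 and 0.659, with a mean level between -1.07 and 1.32 in HFD and between -0.904 and 1.27 in MSXH. With the 2 mice most distant from the middle of the class mean left out, these became 0.327 and 0.418, while the Kupffer values became 0.526 and 0.690.

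The 6 endothelial markers had r = 0.366 and 0.316 (between -0.739 and 0.516 in HFD and between -1.11 and 0.826 in MSXH), and 0.527 and 0.512 without those 2 mice. Their mean level had g = 0.939 between the diets, with no interval computed. Of these markers, 6 of 6 had g above 0, against 49.4% of the genes tested, and this share was not tested. Limma called none of them at an adjusted p under 0.05, nor any of the 11728 genes. The 9 T and NK cell markers measured of 10, 4 of them above the filter, had 0.060 and 0.206 (-0.786 to 0.779 and -0.660 to 0.457). The 3 plasmacytoid dendritic cell markers of 4 had -0.196 and -0.0945 (-0.726 to 0.765 and -0.465 to 1.24), and the 4 neutrophil markers of 5, all under the filter, had 0.283 and 0.361 (-1.20 to 0.821 and -0.779 to 1.20), and 0.0281 and 0.228 without those 2 mice. The 7 hepatocyte markers had -0.553 and -0.677 (-1.36 to 0.507 and -0.506 to 0.408), but their median SD was 5.9e-05 thousandths, so that mean rests on almost no spread. The difference between the 3′ and 5′ actin control probe sets had r = -0.272 and -0.410 over all mice, -0.631 and -0.655 within HFD, and 0.0155 and -0.179 within MSXH. The array median had -0.293 and -0.349 (-0.114 and -0.339 within HFD, -0.496 and -0.368 within MSXH). The part of the B cell, endothelial, T and NK cell, dendritic and neutrophil markers and of the actin and array values in the co-variation was not tested. In bulk liver, a change in the number of cells of a type and in the RNA per cell cannot be told apart.

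The question the diets address is whether the extract alters liver expression under high-fat feeding, and no interferon response gene passed the test. With limma, 0 of 29 members tested and 0 of 11728 genes had an adjusted p under 0.05 (0% called, smallest adjusted p = 0.9998). At an unadjusted p under 0.05, 0 members passed against 425 genes (3.62%). A Wilcoxon rank-sum test at that threshold also gave 0 members, against 399 of the 11728 genes. In all 32 members the diets overlapped. The share of all genes that overlap was not computed, so this count says nothing particular about the members.

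Of the 29 members above the filter, 17 (58.6%) had a g above 0, against 49.4% of the genes tested, and all 3 under the filter did, which makes 20 of 32. The median g was 0.0818 over all members, 0.0296 over type I (11 of 20 above 0) and 0.0983 over gamma (9 of 12), and -0.00692 over all genes tested. The type I median was -0.00192 over members above the filter and -0.0506 with the filter at the 75th percentile. Members move together, so their directions are not separate observations. Leaving out HFD replicate 9, MSXH replicate 3 or MSXH replicate 8 turned both class medians below 0 (to -0.00454, -0.0796 and -0.0326 for type I and -0.00249, -0.0118 and -0.0159 for gamma), and leaving out MSXH replicate 10 turned that of type I (-0.00776).

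The widest differences were in Oasl2, Psmb9 and Oas1a. Oasl2 ran from -0.116 thousandths through -0.0249 to 0.0440 in HFD and from -0.103 through 0.0213 to 0.119 in MSXH (g = 0.517, 95% interval -0.374 to 1.41, limma unadjusted p = 0.234). Psmb9 ran from -0.371 through -0.209 to 0.470 and from -0.761 through 0.149 to 0.530, with 8 of 10 MSXH mice above the HFD median (g = 0.505, interval -0.385 to 1.40, limma unadjusted p = 0.245). Without MSXH replicate 6, the lowest mouse, its limma p was 0.0421 unadjusted. Oas1a ran from -0.0347 through 0.0136 to 0.0342 and from -0.0678 through 0.00319 to 0.0368 (g = -0.503, interval -1.39 to 0.387, limma unadjusted p = 0.247). After quantile normalization its direction turned, with g = 1.17 and an unadjusted limma p of 0.0115, and with arrays shifted to one median g was 0.0541.

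The chosen probe sets of the other members lay between these values. Tap1 had g = 0.442, Rtp4 0.383, Bst2 0.379, Psmb10 0.362, Psmb8 0.361 and Cxcl10 -0.419. Among the genes that spread most, Gbp2 had 0.192 (interval -0.687 to 1.07), Igtp 0.0271 (-0.849 to 0.904) and Rsad2 -0.313 (-1.20 to 0.569). Probe sets of a gene disagreed in Stat2, whose sets had g = -0.00192 (chosen) and 1.13, and in Tap1, whose 3 other sets lay between -0.467 and -0.359. The sign also differed between sets of Psmb8 (0.361 chosen, -0.186), Ifi35 (-0.0392 chosen, 0.144 and 0.437), Ddx58 (-0.276 chosen, -0.260 and 0.137) and Iigp1 (0.0687 chosen, -0.00954). Other sets of B2m (-0.724) and Rsad2 (-0.593) lay lower than any chosen set. The intervals of the chosen sets leave room for differences of up to 1.41 SD higher (Oasl2) and 1.39 SD lower (Oas1a) with 10 mice per diet. Intervals of the other sets, such as the Stat2 set at 1.13, were not computed and may reach further.

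**Figure D5:**
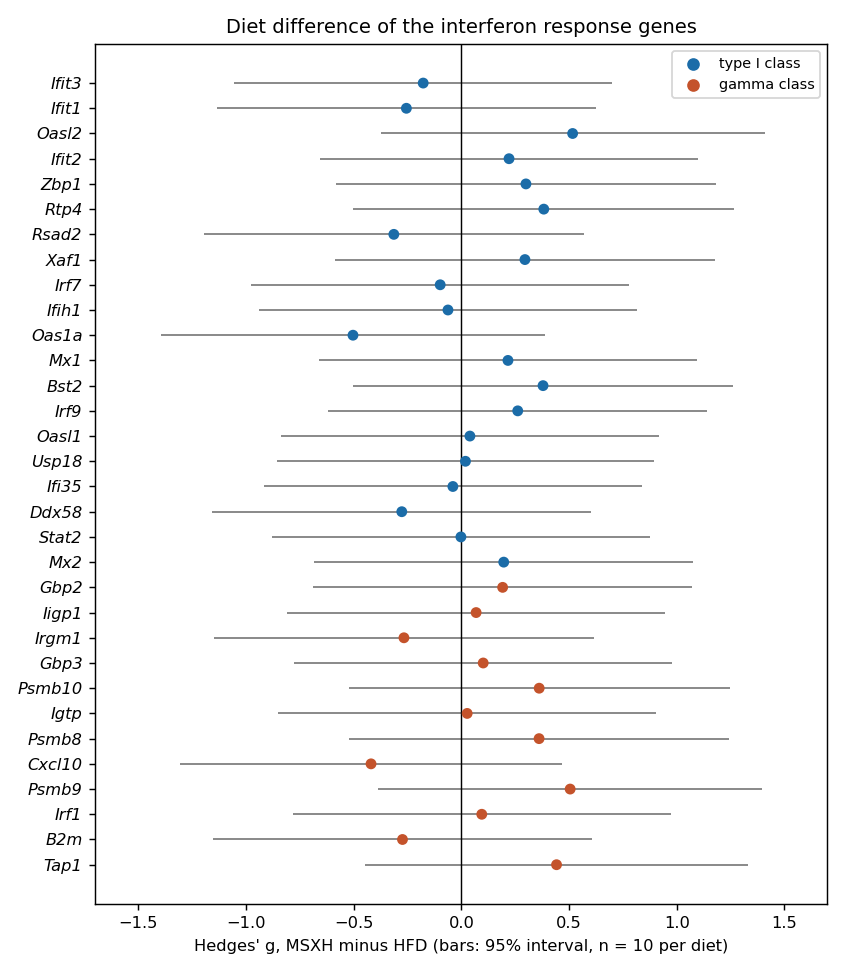
Hedges' g (MSXH minus HFD, in pooled SD units) with its 95% interval for the 32 genes, 10 mice per diet, coloured by class and ordered as in the plot of levels. Every interval crosses 0, and the points lie between -0.503 (Oas1a) and 0.517 (Oasl2).

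Other genes of the interferon pathway were read from a list of ligands, receptors, kinases, factors, sensors and inhibitors. Of the 34 measured, 27 passed the filter, and limma called 0 at an adjusted p under 0.05. At an unadjusted p under 0.05, 1 was higher and 1 lower, against 3.62% of all genes. They were the endosomal receptors of double-stranded RNA and of CpG DNA, Tlr3 (g = 0.903, 95% interval -0.0167 to 1.82, limma unadjusted p = 0.0469) and Tlr9 (g = -1.08, interval -2.02 to -0.140, limma unadjusted p = 0.0217). The median g of the 34 was -0.172, with 10 above 0 (29.4%, against 49.4% of the genes tested) and 24 below. The 34 include genes under the filter, and this share was not tested.

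The ligand genes Ifnb1 (6.08), Ifng (5.80) and Ifna4 (5.86) all lay under the filter. The genes of the pathway with the largest spread were Socs3, an inhibitor of the kinases (SD 1.39 thousandths, r = 0.500 with the type I mean and 0.581 with the gamma mean), Ifngr2 (0.330, 0.424 and 0.347), Trim25, which activates RIG-I (0.216, 0.087 and 0.207), and the adaptor Mavs (0.182, -0.540 and -0.478). The median SD of the 34 was 0.0138, close to the 0.0148 of all genes tested and below the 0.131 of the members.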

How the data were processed

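Each of 20 livers was hybridised to 1 array. Per the labels' protocols, biotin-labelled copies were made from 200 ng of total RNA with a 3′ IVT kit, which reads mostly transcript ends. The deposited log2 values of 45101 probe sets were used as the authors gave them, and their correction, normalization and summary were not given in the sources used. Array medians differed by 0.000176, and signal over background is not known, so the number of arrays limits the precision. No pair of arrays held identical values.

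Of 45037 probe sets that are not controls, the platform annotation names 1 gene for 34945, several for 932 and none for 9160, and 34741 matched the RefSeq gene table by gene number. Genes with a mean under the median of the probe sets (6.51) were left out of the tests, which left 11728. Diets were compared with limma 3.58.1 (R 4.3.3; lmFit, eBayes) with Benjamini-Hochberg adjustment over all genes and a threshold of 0.05. Members under the filter have their p from the fit without it. Correlations and permutations used numpy 2.4.6 and scipy 1.17.1 in Python 3.11.15, and plots matplotlib 3.10.9. Of 12 planned pairs, 10 were computed, since Isg15 was in 2. Scripts were tested on simulated data with known shifts and correlations.

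The members, lists and pairs were chosen with earlier results of these data known. Named genes were every member, pathway genes at an unadjusted p under 0.05 or among the 4 with the largest SD, and the 6 non-members closest to each class mean. The labels name no batch. The labels do not say that same-numbered mice of the 2 diets were paired, and the main tests did not pair them. The correlations of their deviations ran from -0.133 to 0.369, and 2 of 20 mice correlated best with their own number. These values cannot show whether the mice were paired. Alternatives covered scaling, filter, probe set, variance model, replicate number, test and each mouse left out.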

Additional observations from a re-analysis of the deposited data

Results flagged for a closer look

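In 4 of the 64 sets of 10 mice (32 genes in 2 diets), 1 mouse stood apart from the rest by a share of the set's whole range above the 95% limit of Dixon's test, where chance gives about 3.2 sets. Igtp in MSXH was high in replicate 3, with a gap of 0.505 of the range. Irf1 and Irgm1 in HFD were both high in replicate 5, with gaps of 0.491 and 0.486. Ifih1 in MSXH was low in replicate 6, with a gap of 0.472. The same mice stood high or low across the members, with 31, 30 and 2 of 32 above the gene's own mean in MSXH replicate 3, HFD replicate 5 and MSXH replicate 6.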

How the results depend on the processing

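No alternative gave a member or any other gene an adjusted p under 0.05 with limma or the Wilcoxon test. The count of all genes at an unadjusted p under 0.05 was 425, and became 46 with arrays shifted to one median, 126 after quantile normalization, 780 with no filter (of 18193 genes), 197 with the filter at the 75th percentile (of 6940) and 318 to 598 with 1 mouse left out. The count of members was 1 after quantile normalization (Oas1a, with its g turned from -0.503 to 1.17) and 0 to 1 with 1 mouse left out, the 1 being Psmb9 without MSXH replicate 6. With the replicate number as a replicate block the counts were 0 adjusted and 501 unadjusted, and 0 members. With 1 mouse left out, the median g ran from -0.0796 to 0.272 for type I and from -0.0159 to 0.371 for gamma. The sign of g changed in 6 of 29 members with arrays shifted, 10 of 27 after quantile normalization and at most 6 with a mouse left out, none of them called. The median r within type I was 0.679 with arrays shifted, 0.213 after quantile normalization and 0.654 over members with an SD above the 90th percentile. Within gamma it was 0.147 after quantile normalization. Between the classes it was 0.649, 0.199 and 0.663 under those settings. The cause of these shifts was not tested. With 1 mouse left out the medians ran from 0.430 to 0.510, from 0.541 to 0.625 and from 0.465 to 0.555. Of the alternatives chosen after seeing the data, removing the first component of the other genes (16.9% of their variance) gave 0.469 within gamma, removing the hepatocyte marker mean 0.456, and leaving out HFD replicate 5 and MSXH replicate 6 gave 0.479 within gamma and 0.414 between. These medians stayed above 0 under every setting run. With arrays shifted, however, the members' medians lay below the median over all gene pairs (0.878). After quantile normalization the median over all gene pairs was 0.128. The compressed values limit every difference to units of SD.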
